A study of Homo sapiens with 6 samples.

Results

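To describe how the distribution of histone lysine acetylation (Kac) changed when HepG2 cells were given sodium benzoate (SB), the Kac peak lists of untreated and SB-treated cells were compared gene by gene. These are 2 of the 6 ChIP-seq libraries of the series, chosen by their labels. Both came from HepG2, an established human liver tumor line, and they differed in whether the culture had received 10 mM SB for 24 h. In ChIP-seq, an antibody pulls down chromatin fragments and their DNA is sequenced. Here the chromatin had been cut with micrococcal nuclease and the antibody bound acetylated lysine in general, so neither the histone nor the residue behind a peak is known. Each group held 1 library, so no difference below could be set against replicate error. The values are descriptions of these libraries, with no test between groups. The control list held 70326 peaks and the SB list 63282, and 19970 protein-coding genes were compared. Peak lists carry no read totals, so sequencing depth is unknown, and a deeper library would give more and wider peaks from the same chromatin.

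Lysine acetylation neutralizes the positive charge of histone tails and is read by bromodomain proteins. It is written by acetyltransferases that use acetyl-CoA and removed by zinc-dependent histone deacetylases and by sirtuins. It is found at the promoters of active genes and at enhancers, which may lie far from the genes they act on, and in the liver lineage it marks the genes of plasma proteins and the factors that control them. Benzoate is a food preservative that liver enzymes join to coenzyme A and then to glycine, and benzoyl-CoA is the donor for lysine benzoylation (Kbz), the other mark studied in these cells.

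A promoter window was taken as the 3 kb on either side of the canonical transcription start site (TSS) of a gene, and the gene body as the rest of the gene. The quantity given for each is the number of bases that lay under a Kac peak. Where a percentile is given, it is the rank of a peak's fold enrichment within its own list, with 100 as the highest. The −log10 q is the significance given to a peak by the peak caller. Intervals in brackets are Wilson 95% intervals, which cover counting error only.

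The labelled line was first checked against its defining markers. Of 20 markers of this line, 9 had control Kac in the promoter window, 8 had SB Kac and 11 had neither. The windows of ALB and AFP, which encode albumin and alpha-fetoprotein, held 0 bases in both lists, and so did those of TTR, SERPINA1, APOB and the fibrinogen genes FGA, FGB and FGG. HNF4A and FOXA2, regulators of liver genes, were likewise at 0 and 0 in their windows, though the body of HNF4A held 11353 bases in control and 6814 in SB. A window covers the canonical start site alone, so Kac at a more distant start of the gene would not count in it. Kac was present at APOA1, with 1683 bases in control and 1343 in SB, at CEBPA with 3210 and 2940, and at FOXA3 with 3692 and 4311. Of 23 liver transcription factors 16 had Kac in control and 16 in SB, and of 22 apolipoproteins 16 and 15 did. Among 14 factors of kidney development, a list kept for comparison, 11 had control Kac and 11 had SB Kac. PAX2, for example, held 3893 bases in control and 4663 in SB. Several defining liver markers were thus absent from the promoter peaks of both libraries while others were present, and the groups are called HepG2 here only as their labels do. Of 20 neuronal markers, 11 had control Kac, and of 24 blood and 17 fibroblast or endothelial markers 10 and 8 had it. These counts were 12, 10 and 10 in SB Kac.

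Promoters held 27.1% of all Kac bases in control and 30.9% in SB, while the bases outside protein-coding genes and their windows were fewer in SB. Promoter windows held 35.3 Mb of control Kac and 35.7 Mb of SB Kac, so SB Kac stood at 101.1% of control there. Gene bodies went from 48.6 to 46.0 Mb, or 94.7%. Sequence that was neither window nor body of a protein-coding gene went from 46.5 to 33.7 Mb, or 72.4%, and this compartment held 85.6% of the net difference between the lists. The number of peaks followed the same pattern, with 14679 and 14282 peaks at promoters, 28784 and 28043 in bodies, and 26863 and 20957 elsewhere. Of the control Kac peaks, 9.52% (9.06 to 10.0) at promoters had no SB Kac peak over them, against 40.1% (39.5 to 40.7) in bodies and 44.2% (43.6 to 44.8) elsewhere. Of the SB Kac peaks, 8.05%, 38.6% and 25.8% in the same order had no control Kac peak. The loss of peaks in excess of their gain thus lay mainly outside genes. The value for gene bodies depended on the length of the lists, since with equal numbers of covered bases it stood at 114.0% of control.

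The lower coverage outside genes was seen on each chromosome. SB Kac there ranged from 63.4% of control on chromosome 18 to 87.1% on chromosome 16, and 0 of 23 chromosomes exceeded 100%. In promoter windows 18 of 23 chromosomes exceeded 100%, from 94.9% on chromosome 19 to 108.9% on chromosome 13. In gene bodies 6 of 23 did. Across the 23 chromosomes, which share both libraries, the GC content of a chromosome and its share of SB Kac elsewhere gave a Pearson's r of 0.65 and a Spearman's rho of 0.57. Without chromosomes 19 and 22, the farthest from the median GC content, r was 0.63. For promoter windows r was −0.61 and rho −0.59, and r was −0.37 without those chromosomes. Base composition thus moved with both values, in opposite directions, and its part in them was not tested.

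**Figure D1:**
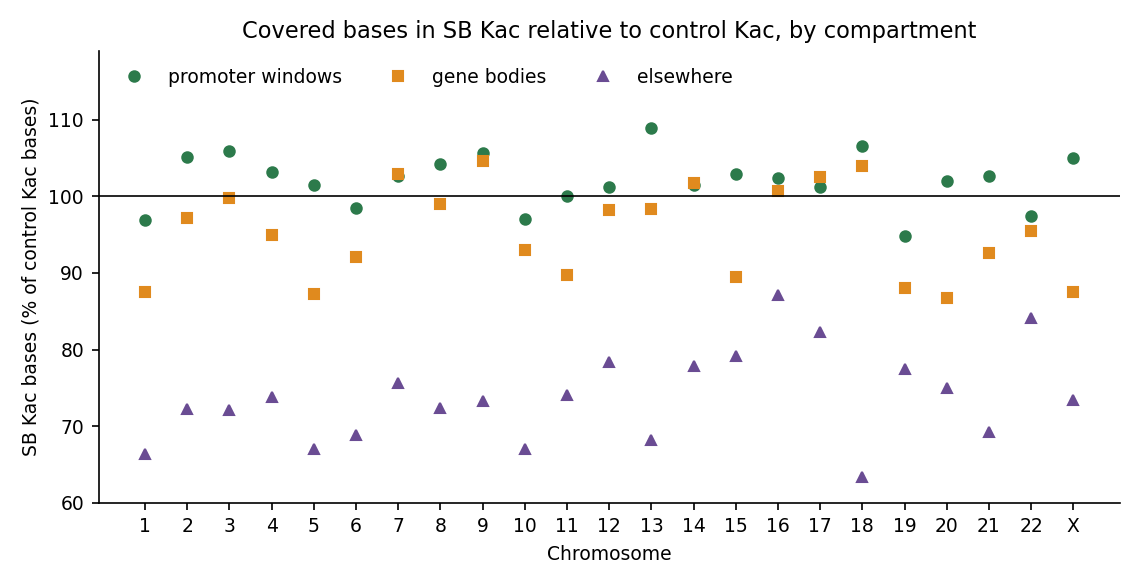
Bases under SB Kac peaks as percent of the bases under control Kac peaks (vertical axis, which starts at 60%) for each chromosome (horizontal axis), in promoter windows (circles), gene bodies (squares) and elsewhere (triangles), with 1 library per group and a line at 100%. All 23 triangles lie below 100%, between 63.4% and 87.1%, while 18 of 23 circles lie above it.

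Where a control Kac peak overlapped SB Kac peaks, its rank was compared with the highest rank among those SB peaks, as a pair. Taking the highest on the SB side alone raises the change where several SB peaks overlap a control peak. At promoters, over 13281 pairs, the median percentile of fold was 80.4 in control and 84.2 in SB, the median change of a pair was +2.54 points, and 62.7% (61.8 to 63.5) of peaks ranked higher in SB. In gene bodies, over 17245 pairs, the median change was +0.08 points and 50.2% ranked higher. Elsewhere, over 14990 pairs, the median change was −3.67 points and 41.1% (40.3 to 41.9) ranked higher. Among overlapping peaks, those at promoters thus ranked higher and those outside genes lower in SB. The lists differ in length, mostly in peaks outside genes, and on a scale of ranks a rise of one class goes with a fall of another, so these changes are relative only.

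At single genes most promoters kept their Kac. Of the 19970 windows, 13333 held at least 500 bases in both lists, with medians of 2771 bases in control and 2856 in SB and a median difference of +43 bases. A window was called lower or higher in SB when it differed by at least 1000 bases and at least 2-fold. By this rule 783 windows (3.92% of all genes) were lower and 770 (3.86%) were higher, nearly the same number in each direction. A window was called lost when at least 500 control bases went to 0. There were 456 such windows, or 3.25% of the 14047 that had 500 control bases. It was called gained when 0 control bases went to at least 500. There were 317, or 5.89% of the 5380 windows with 0 control bases, and 4884 windows had Kac in neither list. The excess of lost over gained windows depended on the peaks counted, with 386 lost and 394 gained at equal numbers of peaks, 290 and 552 at equal covered bases, and 579 and 1886 at a −log10 q of at least 5. Lost and gained peaks were weak: their median −log10 q was 2.36 for lost and 2.04 for gained windows, against 6.55 in control and 8.87 in SB for kept windows. These calls near the detection limit are the ones that a difference in depth would move first. At a −log10 q of at least 5 in both lists, windows called higher rose to 2126 against 677 lower, as more promoter peaks of the SB list passed that limit.

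**Figure D2:**
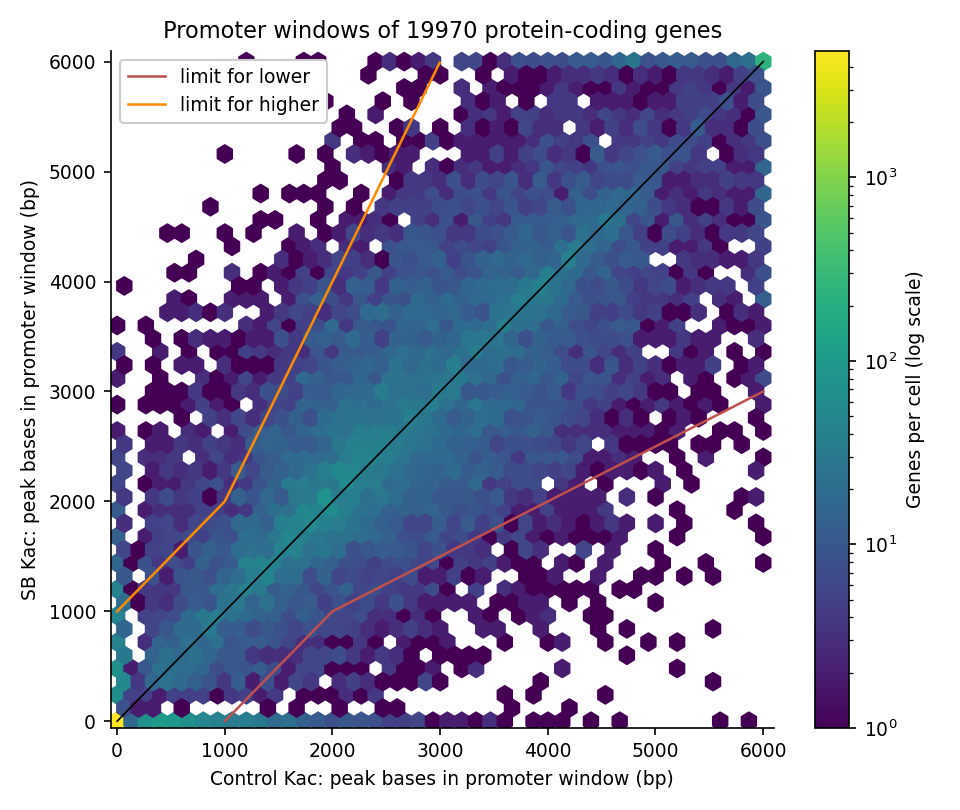
Bases under a Kac peak in the promoter window of each of 19970 protein-coding genes, control on the horizontal and SB on the vertical axis (bp), as counts of genes per cell on a logarithmic color scale, with the diagonal in black. The 783 genes below the red line were called lower and the 770 above the orange line higher, and most genes lie along the diagonal or at the origin.

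Only 35 of the lost and 13 of the gained windows held at least a part of a peak whose −log10 q was 5 or more. The percentiles below are those of the strongest peak that reached into the window, which need not hold all of its bases. The lost window with the highest percentile was that of NHLH1, a helix-loop-helix factor of neurons, with 4714 bases in control, 0 in SB and a peak at percentile 97.3 and a −log10 q of 16.7. TNFRSF1B, a receptor for tumor necrosis factor, went from 1307 to 0 bases. Its strongest peak (percentile 97.0) ended at 12164164, upstream of the TSS at 12166991, and held only part of these bases. CEACAM5, the carcinoembryonic antigen, and the overlapping gene ENSG00000267881 shared 1 lost peak that put 836 bases in each window. MEF2B, a MADS-box transcription factor, went from 2269 to 0, and PNLIPRP1, a pancreatic lipase-related protein, from 1598 to 0. NUDT14, a hydrolase of UDP-sugars, went from 2685 to 0. TXNRD1, the cytosolic thioredoxin reductase, lost 551 bases at its canonical window, while its body held 18742 bases in control and 13491 in SB. Its strongest peak began at 104218665, near the downstream edge of the window, and lay mostly in the body. KCNK9, a potassium leak channel, lost 1009 bases, and EPX, eosinophil peroxidase, lost 2725.

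The proximal promoter of NHLH1 is shown because it illustrates how few CG pairs a lost promoter can hold. The sequence runs from 270 bases before to 30 after the TSS, at chr1:160366801-160367100 on the plus strand (hg38), and so takes in the first bases of exon 1. It lies whole under the control Kac peak, and each CG pair is in capitals.
NHLH1: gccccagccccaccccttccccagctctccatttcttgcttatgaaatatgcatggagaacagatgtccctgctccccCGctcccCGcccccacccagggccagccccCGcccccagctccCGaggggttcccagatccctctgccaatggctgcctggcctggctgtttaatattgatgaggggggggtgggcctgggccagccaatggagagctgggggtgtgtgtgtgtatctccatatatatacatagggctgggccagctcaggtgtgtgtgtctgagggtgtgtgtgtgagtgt

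It holds 4 CG pairs in 300 bases. The control peak over it ran from 160359581 to 160368784.

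The gained window with the highest percentile was that of HOXD4, a homeobox gene of the HOXD cluster, with 0 bases in control and 3278 in SB. Its strongest SB peak, at percentile 92.1, ran from 176153344 to 176166617. It thus began downstream of the TSS at 176151550, reached past the window and held only part of these bases. BTBD2 went from 0 to 1732 bases (percentile 84.7), NIPA1, a magnesium transporter, from 0 to 565, and ZNF91, a zinc finger repressor of retrotransposons, from 0 to 534. CTSF, the lysosomal protease cathepsin F, went from 0 to 2460 bases. LRRC4, a synaptic adhesion protein, went to 843 and SNX25, a sorting nexin, to 1381. PIM2, a serine/threonine kinase, went to 1354, SANBR to 1359 and the histone gene H4C9 to 785. Of the 13 gained windows with a strong peak, 5 (38.5%) also held Kbz in SB-treated cells, against 2 of the 35 lost ones (5.71%). The share was 60.5% over all genes and 0.47% in windows with Kac in neither list. Lost windows hold no SB Kac by definition, so the 2 classes are unlike in the cells where Kbz was read.

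Among the strong gains, PIM2 and SANBR had their proximal promoter whole under the SB peak. They are shown in the same way, PIM2 at chrX:48918995-48919294 on the minus strand and SANBR at chr2:61065601-61065900 on the plus strand.
PIM2: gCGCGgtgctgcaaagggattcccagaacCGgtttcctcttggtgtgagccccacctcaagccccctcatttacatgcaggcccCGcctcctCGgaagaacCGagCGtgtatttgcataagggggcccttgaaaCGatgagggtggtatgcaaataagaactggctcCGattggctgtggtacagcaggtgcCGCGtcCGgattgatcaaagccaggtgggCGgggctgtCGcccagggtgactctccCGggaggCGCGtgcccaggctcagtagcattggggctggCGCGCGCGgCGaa
SANBR: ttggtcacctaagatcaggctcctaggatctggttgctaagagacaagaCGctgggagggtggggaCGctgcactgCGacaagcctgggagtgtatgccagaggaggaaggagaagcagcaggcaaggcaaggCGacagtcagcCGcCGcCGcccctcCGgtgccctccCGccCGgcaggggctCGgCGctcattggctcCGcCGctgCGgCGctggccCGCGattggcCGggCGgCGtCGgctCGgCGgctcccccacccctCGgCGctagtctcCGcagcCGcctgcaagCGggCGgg

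They hold 22 and 30 CG pairs, more than the lost promoter above. Single promoters of the 2 classes overlapped over the same span. Among strong losses NUDT14 held 43 and MEF2B 28, and among strong gains H4C9 held 3 and HOXD4 4. The 3 printed promoters were picked after their values were seen, because their peak covered them and because they reach at most 30 bases into an exon.

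Over the whole set the contrast in CG pairs held for the medians, with lost and gained windows both below all genes. The CpG ratio, the observed number of CG pairs in the 1000 bases around the TSS over the number that the base composition gives, had a median of 0.33 in lost windows, 0.55 in gained windows and 0.78 in kept windows, and of 0.73 over all genes. Genes were then ranked into quartiles by this ratio. In the lowest quartile, of 4993 genes, 334 windows were lower and 173 higher, 265 were lost and 142 gained, and SB Kac bases stood at 85.4% of control. In the second quartile 193 were lower and 142 higher, at 97.7%, and in the third 124 and 171, at 103.3%. In the highest quartile 132 were lower and 284 higher, 42 were lost and 67 gained, and SB Kac stood at 106.7%. The ratio of lower to higher calls thus went the other way at CpG-rich promoters. Gene bodies followed, with 232 lower and 66 higher in the lowest quartile and 204 lower and 259 higher in the highest. GC content moved with the classes too, with medians of 57.2% in lost, 60.6% in gained and 63.7% in kept windows, and its part in this was not tested.

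Coverage along the window gave this contrast a shape. At 1000 bases downstream of the TSS, 43.9% of all genes were under a control Kac peak and 47.0% under an SB Kac peak, a difference of +3.12 points. At 1000 bases upstream the shares were 42.1% and 40.1%, a difference of −2.05 points. SB Kac thus reached farther into the gene and less far upstream. In the highest CpG quartile the share 1000 bases downstream went from 63.2% to 71.4%, a difference of +8.17 points, against −0.90 at 1000 bases upstream. In the lowest CpG quartile the differences at the same positions were −1.98 and −2.46 points, and at the TSS 20.4% of genes were covered in control and 18.1% in SB.

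**Figure D3:**
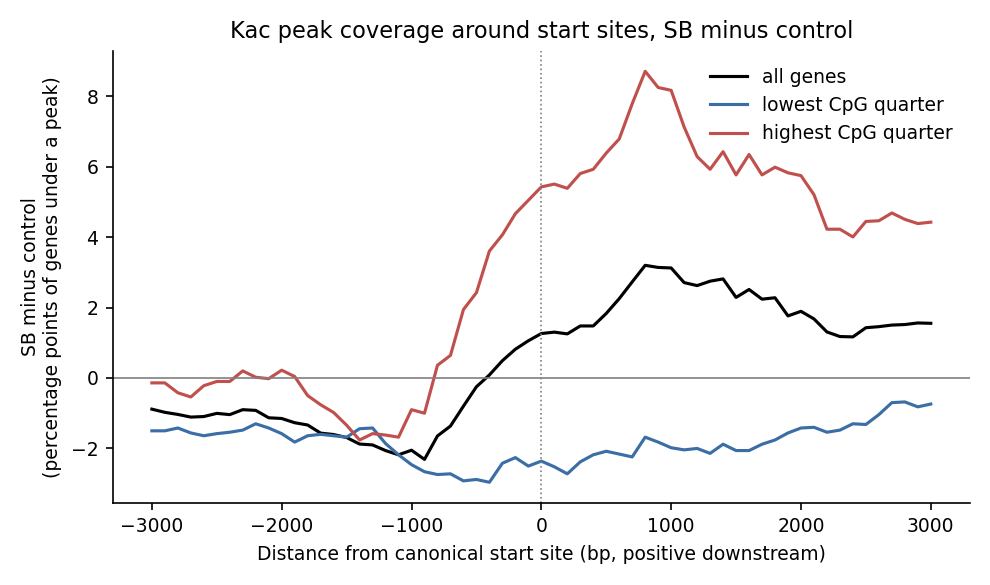
Share of genes under an SB Kac peak minus the share under a control Kac peak (percentage points, vertical axis) by distance from the canonical start site (bp, positive downstream), for all genes (black), the lowest CpG quartile (blue) and the highest CpG quartile (red), with 1 library per group. At 1000 bp downstream the lines stand at +3.12, −1.98 and +8.17 points.

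The widest single changes were not those with the strongest peaks. The 6 windows with the largest falls and the 6 with the largest rises were picked after the data were seen. COL7A1, the collagen of anchoring fibrils, went from 5903 bases in control to 0 in SB, and its control peak stood at percentile 68.5 with a −log10 q of 4.76. MYL3, a myosin light chain of heart and slow muscle, went from 5578 to 0 at a control −log10 q of 2.05. LAMB3, a laminin chain of epithelial basement membranes, went from 5569 to 336, CLRN1, mutated in Usher syndrome, from 5143 to 444, and FCRLA, a B-cell protein, from 5505 to 870. NHLH1 completed the falls. In the other direction MACO1 went from 1238 to 6001 bases, and GET4, which serves the insertion of tail-anchored proteins, from 1458 to 5789. PRX, the periaxin of myelinating cells, went from 1676 to 6001 bases under 1 SB peak at percentile 64.4. NRIP3 went from 999 to 5225, RNF224 from 1868 to 6001, and CCN2, a matricellular protein and classical target of YAP, from 458 to 4481.

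Gene bodies showed larger changes in bases than windows, which end 3 kb on either side of the TSS, so the sizes of change are not comparable. Of 17076 genes with at least 2000 bases of body, 872 (5.11%) were called lower, with at least 2000 fewer bases and at least a 2-fold difference, and 608 (3.56%) were called higher. These genes were long, with median bodies of 61.3 kb for lower and 66.3 kb for higher genes against 32.4 kb over all tested. A long body has more room to pass a limit in bases. Of the 872 lower bodies, 600 (68.8%) belonged to genes whose promoter window kept Kac in both lists, against 70.3% of all genes tested, and 69 (7.91%) to genes whose window was lower too, against 3.89%. The direction turned with the length of the lists: with equal numbers of peaks 716 bodies were lower and 785 higher, and with equal covered bases 557 and 1105.

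FGGY, a carbohydrate kinase, had 67379 bases of body Kac in control and 13355 in SB, with a window of 5168 and 4071. ME3, a mitochondrial malic enzyme, went from 63121 to 21415 in its body, and KCNMA1, the BK potassium channel, from 53608 to 14157. CUBN, the cubilin receptor for vitamin B12 and proteins in kidney and gut, went from 54681 to 20392. GALNTL6, a GalNAc-transferase-like protein, went from 57511 to 23246 and FSTL4, a follistatin-like protein, from 56922 to 22824. The windows of ME3, KCNMA1, CUBN and FSTL4 held 1104, 536, 410 and 761 control bases and 0 in SB, so here the start sites lost their weak peaks as well.

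The largest called rise was in FOXP2, a forkhead factor known for its part in speech, from 36696 to 75552 bases, with a window that went from 4268 to 6001. TTC28 went from 10888 to 33826 bases although its window held 0 in both lists. JAZF1, a zinc finger protein, went from 18649 to 38906 and PKNOX2, a TALE homeobox factor, from 18154 to 37061. DGKB, a diacylglycerol kinase, went from 14234 to 32266, and FBXO8, an F-box protein, from 12718 to 29756. PRDM16, a zinc finger methyltransferase of brown fat and hematopoietic stem cells, held 52358 body bases in control and 81186 in SB, a wider rise than all but that of FOXP2 among these, but under the 2-fold limit and so not called.

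**Figure D4:**
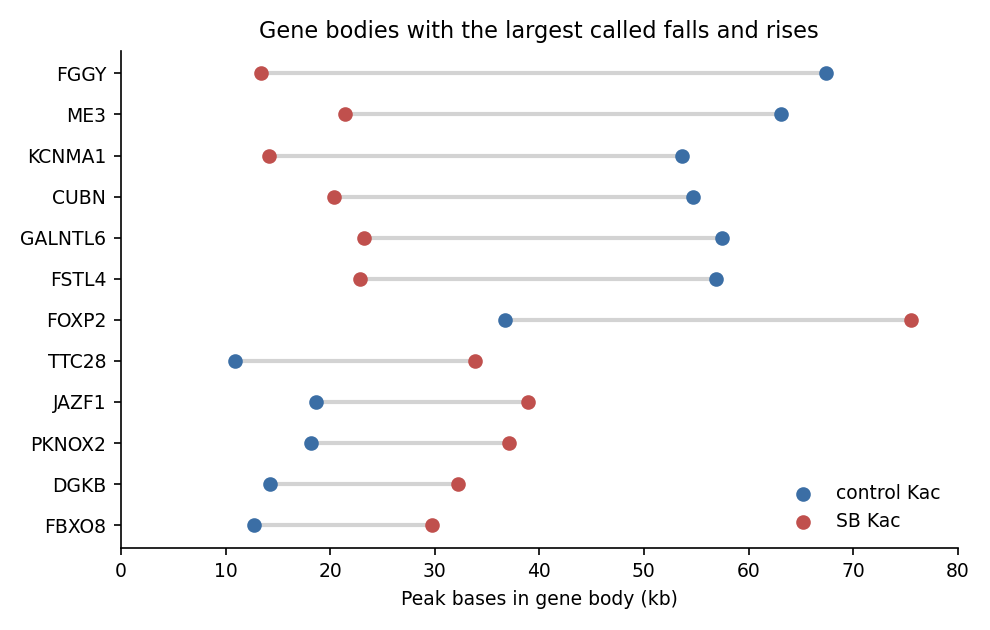
Bases under a Kac peak in the gene body (kb, horizontal axis) in control (blue) and SB (red) for the 6 genes with the largest called falls and the 6 with the largest called rises, 1 library per group. FGGY goes from 67.4 to 13.4 kb and FOXP2 from 36.7 to 75.6 kb.

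Larger regions were described in bins of 1 Mb. Of those that held at least 20 kb of Kac in either list, 1199 of 1722 (69.6%) were lower in SB and 523 higher, 73 stood at 50% of control or less and 3 at 2 times control or more. The largest fall, from 158.5 to 38.7 kb, was at chr5:158000001-159000000, where EBF1, a B-cell and neural factor, was the only protein-coding gene that reached into the bin. Its window held 4831 bases in control and 5782 in SB while its body went from 34872 to 21176, a smaller net fall than that of the bin. The next was at chr1:234000001-235000000, from 289.9 to 181.6 kb, with SLC35F3, COA6, TARBP1 and IRF2BP2. The window of SLC35F3 was lost, from 1124 bases to 0, whereas IRF2BP2, a transcriptional corepressor, kept 4440 and 4429 bases. The one after it was at chr1:203000001-204000000, from 259.9 to 160.1 kb. Among its genes, FMOD, the small matrix proteoglycan fibromodulin, went from 1569 window bases to 0, and ATP2B4, a plasma membrane calcium pump, kept its whole window of 6001 bases in both lists. Of the 20 bins with the largest falls, 8 were on chromosome 1.

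Some stretches held only lower bins. With 69.6% of all bins lower, nothing is read from their length. The 16 bins of chr1:197000001-213000000 were all lower and held 1796 kb in control and 1253 kb in SB, or 69.8%. The 13 bins of chr6:128000001-141000000 stood at 66.4%, and the 10 bins of chr1:223000001-233000000 stood at 70.7%. The 18 bins of chr19:1000001-19000000 were all lower, at 86.3%. The largest rises were smaller, led by chr17:17000001-18000000, which went from 187.7 to 237.3 kb and holds RAI1, a chromatin protein, whose body went from 38702 to 57051 bases. The bin chr1:3000001-4000000, with PRDM16, went from 116.9 to 160.3 kb, and chr7:114000001-115000000, with FOXP2, from 58.6 to 98.0 kb.

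Gene families were then described by their called members beside the shares over all genes given above. Those named were picked from 75 lists with the results known. Of the 29 lists with control Kac in under 75% of members, 16 had more lower and 6 more higher windows, and of the other 46, 11 had more lower and 20 more higher. Over 153 families taken by symbol stem, 51 had more lower, 53 more higher and 49 equal numbers. Cytokine genes leaned to fewer Kac bases. Of 74 interleukins and their receptors, 11 windows were lower (14.9%) and 3 higher (4.05%), 9 were lost, and the bases of the list stood at 70.3% of control. IL31RA, the receptor for IL-31, went from 3351 bases to 0 and its ligand IL31 from 2194 to 0. IL10RA, a chain of the IL-10 receptor, went from 3652 to 1448, while the other chain, IL10RB, went from 1223 to 3590. IL4, the cytokine of type 2 helper T cells, went from 2030 to 111, and IL23A, a subunit of IL-23, from 1468 to 0. The median difference over the list was 0 bases, as over all genes, with 32 windows that had fewer bases in SB and 13 that had more. In gene bodies 4 of 61 members were lower and 0 higher, with IL1RAP, the IL-1 receptor accessory protein, at 9960 bases in control and 2339 in SB.

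Potassium channels, which set the resting potential of cells, leaned the same way in windows and bodies. Of 96 genes, 8 windows were lower (8.33%) and 2 higher (2.08%), and 8 were lost. KCNJ5, an inward rectifier, went from 5568 bases to 1316, KCNIP1, a channel-interacting protein, from 2303 to 0, and KCNC1, a fast voltage-gated channel, from 2220 to 340. KCNG4, a silent modifier subunit, went from 0 to 2406. Of 90 bodies tested, 9 were lower and 1 higher, and the body bases of the list stood at 71.2% of control.

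Genes of the extracellular matrix showed a like lean. Of 44 collagens, 8 windows were lower (18.2%) and 3 higher (6.82%). Beside COL7A1, COL8A1 went from 4557 bases to 1868, and COL4A3 and COL4A4, basement membrane chains that share 1 bidirectional promoter and therefore 1 peak, each went from 1235 to 0. COL5A1, a fibrillar chain, went from 700 to 3874. Of 44 collagen bodies, 8 were lower and 1 higher, and COL21A1 went from 23683 to 3735 bases. Of 12 laminins 2 windows were lower and 0 higher, LAMB3 and LAMB2, the latter from 5200 bases to 2336, and the list stood at 68.3% of control. LAMA2, the laminin chain of muscle, went from 52101 to 25722 in its body. ADAM and ADAMTS proteases did not lean this way in windows, with 4 lower and 5 higher of 44, but 5 of 43 bodies were lower and 2 higher.

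Transporters and lipid enzymes gave smaller leans. Of 379 solute carriers, 22 windows were lower (5.80%) and 11 higher (2.90%), while the bases of the list were nearly equal at 100.1% of control. SLC4A4, a sodium bicarbonate cotransporter, went from 5486 bases to 2538 and SLC16A3, the lactate exporter MCT4, from 2474 to 0, whereas SLC34A3, a renal phosphate transporter, went from 864 to 4631. In bodies 28 of 355 were lower and 10 higher, with SLC2A1, the glucose transporter GLUT1, at 11613 and 4093 bases and SLC7A1, a transporter of cationic amino acids, at 1851 and 12511. Of 67 genes of glycerophospholipid metabolism, a pathway named by the study, 7 windows were lower (10.4%) and 3 higher (4.48%). PLD4 went from 4880 bases to 732, CHKA, a choline kinase, from 4371 to 1910, and GPAT3, a glycerol phosphate acyltransferase, from 4285 to 1834. PCYT2, which makes CDP-ethanolamine, went from 2538 to 6001. The bodies of this list went the other way, with 2 of 66 lower and 5 higher. Of 30 glycolysis genes 4 windows were lower and 1 higher: ENO2, the neuronal enolase, PKLR, the liver and red cell pyruvate kinase, and SLC2A2, the liver glucose transporter, were among the lower, and ALDOC was higher. ENO2 went from 5820 bases to 2101 and PKLR from 1847 to 0. The median difference over the list was +131.5 bases.

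Nuclear receptors had 4 of 44 windows lower and 0 higher. NR4A1, an immediate early receptor, went from 3675 bases to 1692, RARA, the retinoic acid receptor alpha, from 2932 to 1283, NR5A1, the steroidogenic factor, from 1797 to 573, and ESR1, the estrogen receptor, from 1011 to 0. In their bodies 3 were lower and 5 higher of 43. ESR1 went from 27512 to 6236, whereas RARB, another retinoic acid receptor, went from 15713 to 31611 and PPARG, the receptor of fat cell formation, from 2026 to 11238. Forkhead factors had 3 windows lower and 3 higher of 51, and 0 bodies lower and 3 higher of 24, among them FOXO1 at 8002 and 17016 bases beside FOXP2.

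The direction of 6 of these lists depended on which peaks were counted. At a −log10 q of at least 5, lower and higher windows were 4 and 4 for interleukins and their receptors, 6 and 7 for potassium channels, 3 and 7 for collagens, 13 and 44 for solute carriers, 3 and 9 for glycerophospholipid metabolism and 2 and 6 for glycolysis. At that limit 3.39% of all genes were lower and 10.6% higher, so the counts of a list moved with those of all genes. Beside those shares, 5.41% of interleukins and their receptors were lower and 5.41% higher, and 6.25% of potassium channels were lower and 7.29% higher. With a window of 1 kb on either side of the TSS, lower and higher windows were 10 and 14 for solute carriers, 3 and 4 for glycerophospholipid metabolism and 2 and 3 for glycolysis, beside 1.86% lower and 3.08% higher over all genes, while the other 3 lists kept more lower than higher windows.

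**Figure D5:**
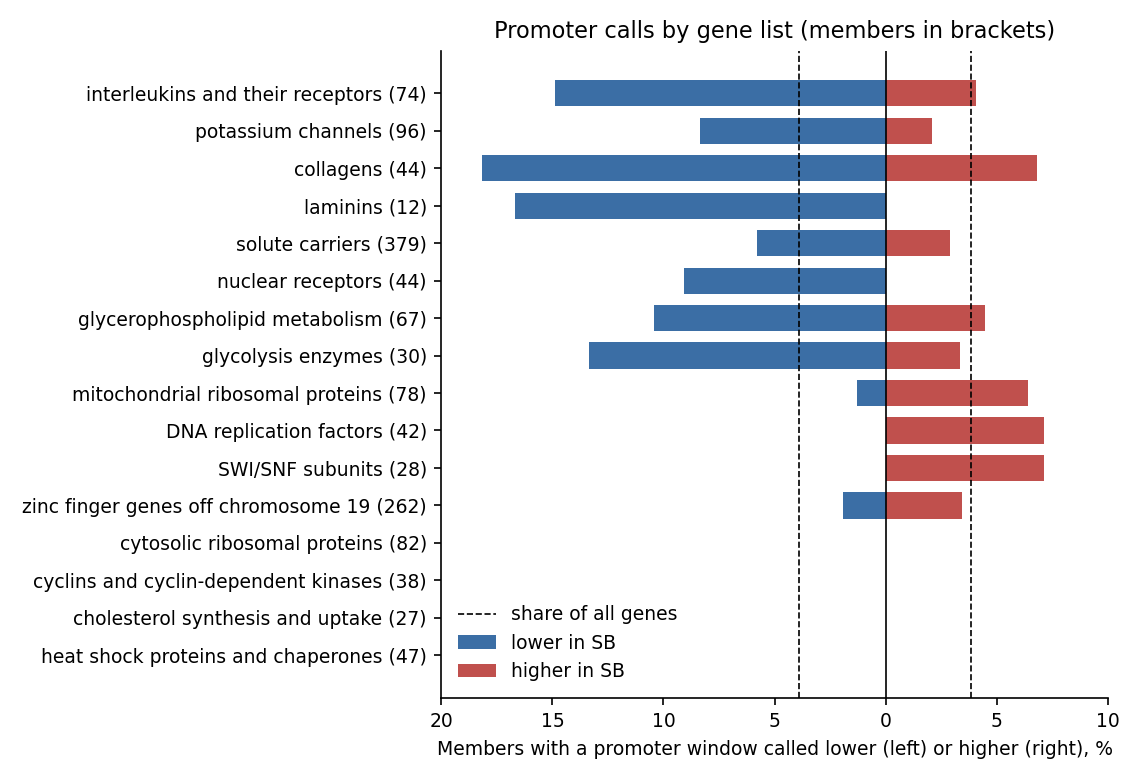
Share of the members of 16 gene lists (number of members in brackets) whose promoter window was called lower (blue, left) or higher (red, right) in SB Kac, in percent, with dashed lines at the shares over all genes, 3.92% lower and 3.86% higher. Interleukins, potassium channels, collagens, laminins, solute carriers, nuclear receptors, glycerophospholipid metabolism and glycolysis extend past the left line. The lowest 4 lists have no called member.

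Several lists of genes that every growing cell uses kept their promoter Kac, and some leaned to more bases. Of 78 mitochondrial ribosomal proteins 1 window was lower and 5 were higher (6.41%), the median difference was +247.5 bases against 0 over all genes, and the bases stood at 114.6% of control. MRPS6 went from 711 bases to 3698, MRPL43 from 2177 to 5159 and MRPS18A from 1481 to 4000, while MRPL4 went from 2754 to 1117. MRPS6 shares its window with SLC5A3, an inositol transporter counted among the solute carriers. At a −log10 q of at least 5 this list had 2 lower and 10 higher windows (12.8%, against 10.6% of all genes), and with the 1 kb window 0 and 1. Of 82 cytosolic ribosomal protein genes 0 were called in either direction, 81 had Kac in both lists, 55 had more bases in SB and 24 fewer, and the median difference was +273 bases. Of 42 DNA replication factors 0 were lower and 3 higher (7.14%): GINS2, a subunit of the replicative helicase complex, went from 663 bases to 3736, FEN1, the flap endonuclease, from 2235 to 5141, and PRIM1, the primase, from 1353 to 3578. SWI/SNF subunits, which remodel nucleosomes, had 0 lower and 2 higher of 28, BRD7 and BCL7B, with a median of +301.5 bases. Cyclins and cyclin-dependent kinases (38 genes), cholesterol synthesis and uptake (27) and heat shock proteins and chaperones (47) had 0 called windows in either direction. Aminoacyl-tRNA synthetases, which charge tRNAs, also had 0 of 35 called, but their median difference was −382 bases and their bases stood at 91.4% of control.

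Zinc finger genes were called less often than all genes, of which 3.92% were lower and 3.86% higher. Of 246 on chromosome 19, most of them in clusters, 3 windows were lower (1.22%) and 2 higher (0.81%). There 99 had fewer bases and 69 more, and the list stood at 95.3% of control. Of 262 on other chromosomes 5 were lower (1.91%) and 9 higher (3.44%). Of these 97 had fewer bases and 124 more, and the list stood at 103.7%. Over all genes 7000 windows had fewer bases and 7855 more, at 101.4% of control. ZNF704 went from 634 bases to 4500 and ZNF800 from 1084 to 4113, while ZNF688 went from 6001 to 2575. Promoter windows of chromosome 19 as a whole stood at 94.9% of control, near the 95.3% of its zinc finger genes. HOX genes had 37 of 39 windows with control Kac and 38 with SB Kac, and the 1 called member was HOXD4. Replication-dependent histone genes, many in shared windows, had 1 lower and 3 higher of 70. Near-identical copies among histone, HLA and metallothionein genes lose reads when only uniquely mapped reads are kept, which affects both lists.

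Of the 60 genes in 4 lists that write, remove or supply acetyl groups, 6 promoter windows (10.0%) were called in either direction, against 7.78% of all genes. Of 21 histone acetyltransferases 1 window was lower, that of CREBBP, from 4632 bases to 1772, and 2 were higher, those of KAT6A, from 735 to 2232, and NAA60, from 0 to 1225, the latter a peak shared with ZNF597. Zinc-dependent histone deacetylases had 0 of 11 called and sirtuins 0 of 7. In bodies SIRT5, a mitochondrial deacylase, went from 1020 to 6226 bases and SIRT7 from 147 to 3106. Of 21 genes of acetyl-CoA supply, 2 windows were lower and 1 higher: PDK2, which inhibits pyruvate dehydrogenase, went from 5128 bases to 2125, ACSS2, the acetyl-CoA synthetase of nucleus and cytosol, from 3855 to 1325, and CRAT, carnitine acetyltransferase, from 2342 to 5228. The 12 genes of benzoate activation and glycine conjugation had Kac in 1 window in each list and 0 called. Liver plasma proteins had 13 of 32 windows with control Kac and 11 with SB Kac. HPX, the heme carrier hemopexin, went from 2062 bases to 412 and GC, the vitamin D-binding protein, from 0 to 1184.

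The 4 genes that the study followed up all had fewer window bases in SB. PLA2G4C, a cytosolic phospholipase, had 3154 bases in control and 1021 in SB, and PLA2G15, a lysosomal phospholipase, had 3382 and 1444, and both were called lower. ACHE, acetylcholinesterase, had 3057 and 2813, and PTGS2, the inducible cyclooxygenase, had 1498 and 1251, and neither was called. Rank rose at 1 of the 4, PLA2G4C, which went from percentile 89.0 to 98.6 while it covered fewer bases of the window. At the others rank fell along with bases. PLA2G15 went from percentile 67.3 to 57.8, ACHE from 94.4 to 89.2 and PTGS2 from 98.9 to 96.9. The study chose these genes on this series, so their direction is not independent evidence.

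At peaks outside genes, the share with 1 sequence motif differed between lost and gained sites. TGANTCA, which takes in the element bound by AP-1 (FOS and JUN) dimers, was searched in the 1000 bases around each peak center, on both strands. Among peaks outside windows and bodies it was found in 39.7% (38.8 to 40.6) of the 11873 control Kac peaks with no SB Kac, in 35.2% (34.5 to 36.0) of the 14990 with SB Kac, and in 30.6% (29.4 to 31.8) of the 5406 SB Kac peaks with no control Kac. Over all such control peaks the share was 37.2%, and over all promoters, taken at the same length, 15.3%. Since the frequency of a motif depends on base composition, peaks were also cut into quartiles of GC content. In the lowest GC quartile the shares were 44.1% in control-only and 36.5% in SB-only peaks, and in the highest 28.6% and 22.8%. In quartiles of fold percentile the gap was 37.7% against 30.8% in the lowest and 47.1% against 27.8% in the highest, the latter over 1140 and 176 peaks. In gene bodies the shares were 36.1% in control-only peaks, 34.8% in control peaks with SB Kac and 28.6% in SB-only peaks. Within GC quartiles of body peaks, control-only peaks lay above SB-only peaks in each. They lay above control peaks with SB Kac only in the lowest quartile, at 44.1% against 40.6%. In the highest these shares were 23.9% and 25.5%. Of the 100 control-only peaks outside genes with the highest fold, 53 held the motif. A match is a description of the sequence, not of binding.

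Of those with the highest fold that held it within the peak, 2 are shown as 100 bases of the plus strand (hg38), with the motif in capitals, because they illustrate the motif in strong lost peaks. They stood at percentiles 98.7 and 97.3 of the control list and lie whole under the peak.
chr13:39145044-39145143: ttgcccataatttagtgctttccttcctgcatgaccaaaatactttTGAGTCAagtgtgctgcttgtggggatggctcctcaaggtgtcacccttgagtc
chr7:113873694-113873793: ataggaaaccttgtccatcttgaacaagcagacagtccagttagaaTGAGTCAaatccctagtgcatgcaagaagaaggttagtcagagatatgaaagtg

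The first lies 63.6 kb from LHFPL6 and the second 2.71 kb from PPP1R3A, a glycogen-targeting subunit of a phosphatase, each the protein-coding gene whose edge is nearest. Other motifs differed less or were rarer. GGGCGGGG, a GC box bound by SP factors, was found in 3.34% of control-only, 7.69% of shared and 4.46% of SB-only peaks outside genes, and CCAAT in 76.8%, 70.9% and 73.6%. TGTTTAC, a forkhead element, was in 14.6%, 13.5% and 13.4%, and CAAAGTCCA, an HNF4-type element, in 1.55%, 1.46% and 1.39%.

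At promoters the same motifs followed the CpG ratio. TGANTCA was in 21.1% of lost, 14.2% of gained and 12.2% of kept windows, taken as the 1000 bases around the TSS, and GGGCGGGG in 31.6%, 42.0% and 59.1%. CCGGAAG, the core of an ETS element, was in 10.3%, 13.2% and 28.4% of the same windows, and in 22.4% of all promoters. Of the 4884 windows without Kac, 23.1% held TGANTCA and 9.42% CCGGAAG. The lost windows lay near those shares for both motifs, whereas the gained windows lay near the kept ones for TGANTCA and near the windows without Kac for CCGGAAG.

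Promoters that changed also stood apart in Kbz, taken from the peak list of SB-treated cells, while control Kbz was not analysed here. Kbz peaks were present in 88.7% (88.1 to 89.2) of the kept windows, in 10.4% (7.51 to 14.3) of the gained and in 3.95% (2.51 to 6.15) of the lost ones. Windows called higher held Kbz in 55.3% (51.8 to 58.8) and windows called lower in 37.4% (34.1 to 40.9), against 60.5% of all genes. Of the 4884 windows with Kac in neither list 0.47% held it, and lost windows likewise have no SB Kac, by definition. Kept windows also had the stronger Kac peaks, as given above, so strength and change cannot be told apart in these shares.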

How the data were processed

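The 2 Kac libraries were compared from the deposited broadPeak lists, and the Kbz list of SB-treated cells was read for presence only. Per the labels and the study's methods, the authors aligned single reads to hg38 with Bowtie2 2.2.6, kept uniquely mapped reads, sorted them and removed duplicates with SAMtools 0.1.19, and called broad peaks per library with MACS2 2.1.1 at a stated FDR of 0.01. The lists also hold 13067 control and 15685 SB peaks whose −log10 q is below 2, the value of that FDR. The cutoff for broad regions and the background track are not given in the sources used here. The deposited lists give for each peak a fold enrichment over background, a −log10 p, a −log10 q and a display score made by the authors' peak caller, and the score was not used. Fold is relative to its own library, so only its percentile within a list was compared. Unique mapping thins peaks at near-identical copies.

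Peaks were placed on GENCODE release 44 genes of chromosomes 1 to 22 and X (canonical TSS), leaving out 3 control peaks on other sequences. Every window or body of at least 2000 bp was compared by bases under a peak, with the limits stated beside the results. The CpG ratio and 8 motifs were read from hg38 in 1000 bases. With 1 library per group no test was run. On simulated lists over 19970 genes, 200 of 200 planted losses and 200 of 200 planted gains were called. Of the unchanged genes far from any other TSS, 0 were called lost or gained. These outcomes check only that the calling rule was applied as stated. They give no error rate for calls between real libraries, where depth and peak calling can differ.

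Members and gene lists were chosen with earlier results of these data known. The genes named are the 10 strong losses and gains of highest percentile, the 6 called bodies with the largest fall and rise, up to 4 called members per list, markers, follow-up genes and the genes of the top bins. Other genes named, among them the widest window changes, further gene bodies and the last members of some lists, were chosen after their values were seen. Of the promoters meant for printing, only those covered by their peak and with at most 30 exonic bases were shown. A few genes and sequences that these rules would name are not reported here. Alternatives were peaks at a −log10 q of at least 2 or 5, equal numbers of peaks or of covered bases, merging within 1 kb, a 1 kb window, the outermost start site and other rankings, of which equal covered bases and ranking among overlapping peaks were added after the data were seen. Python 3.11.15, numpy 2.4.6, pandas 2.3.3, scipy 1.17.1, pysam 0.24.0, samtools 1.23.1 and matplotlib 3.10.9 were used.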

Additional observations from a re-analysis of the deposited data

How the results depend on the processing

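Of 125 recomputed values for 19 results, 71 kept their direction and size, 17 list directions kept fewer than 5 called members or leaned by less than 2-fold, 27 values moved and 10 reversed. The 17 values recomputed after merging peaks within 1 kb were identical by construction, as no peaks were merged, and bear on nothing. In the order −log10 q of at least 2, −log10 q of at least 5, equal numbers of peaks, 1 kb window, outermost start and equal covered bases, SB Kac at promoters was 100.6%, 117.4%, 102.0%, 101.4%, 100.4% and 103.6% of control, in bodies 88.3%, 89.4%, 102.2%, 96.8%, 95.4% and 114.0%, and elsewhere 68.4%, 68.1%, 76.4%, 73.9%, 72.1% and 83.0%. The value for bodies thus reversed with equal peaks and equal bases. A shorter control list raises each of these values by construction, but the value elsewhere stayed below control in both settings. Lower windows numbered 372 with the 1 kb window. At a −log10 q of at least 5, higher windows numbered 2126 and gained windows 1886, with 19672 control and 18359 SB peaks left. With equal covered bases, which left 54684 control peaks, 290 windows were lost, 552 were gained, 557 bodies were lower and 1105 higher. Higher minus lower members at a −log10 q of at least 5 came to 31 for solute carriers, 1 for potassium channels, 4 for collagens, 6 for glycerophospholipid metabolism and 4 for glycolysis, and in the 1 kb window to 4 for solute carriers, 1 for glycerophospholipid metabolism and 1 for glycolysis, and the cause was not tested. The median rank change of promoter peaks was +3.14 points by −log10 p and +4.04 among overlapping peaks. For all peaks away from promoters it was −2.20 with at least 50% overlap and −1.37 among overlapping peaks. Leaving out a replicate was not possible with 1 library per group. No paired analysis was possible because with 1 library in each group the labels give no pairs and nothing was tested. Depth is unknown, so weak peaks present in 1 list only may lie near the limit of detection of the other.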
